A study of Mus musculus with 2 samples.

Results

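Near intergenic Olig2 peaks with an E-box motif were the subject, which are peaks that the deposited annotation places outside genes, within 25000 bp of the transcription start site (TSS) of a protein-coding gene, and carry the E-box motif found in the list of peaks. They were taken from the single list of Olig2 peaks by 4 conditions, namely an intergenic annotation, a nearest gene typed as protein-coding, a distance to its TSS of at most 25000 bp in either direction, and at least 1 deposited hit of the E-box motif. In all, 281 of 4215 peaks met the conditions (6.67%, exact 95% interval 5.93 to 7.46%). None of the conditions uses the height of a peak.

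The list came from an Olig2 ChIP set against an Input Control, made from the entire spinal cord of untreated C57BL/6 animals that were male and 6 weeks old. The Olig2 antibody was a rabbit polyclonal, the Input Control was sheared chromatin that had not been precipitated, and several cords were combined for each precipitation. The authors pooled independent experiments before calling peaks, so each peak has 1 value, there is no replicate, and the spread between mice or precipitations is unknown. The read depth behind each peak is unknown as well, and in whole cord a site occupied in few cells cannot be told apart from a site weakly occupied in many.

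Olig2 belongs to the basic helix-loop-helix (bHLH) family of DNA-binding proteins and acts in the oligodendrocyte lineage, the cells that make the myelin sheaths of the central nervous system, and it is also present in their precursors. Proteins of the bHLH family bind as pairs to short DNA words called E-boxes, written CANNTG, with each partner reading one side of the word, so that the middle bases differ between pairs. Sites outside genes and away from promoters can act as enhancers, and the gene nearest to such a site is not always the gene it acts on.

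The E-box motif of the list was matched in 2529 of 4215 peaks (60%), and a match could differ from CANNTG by a base. The reference sequences of 14 of the near intergenic E-box peaks follow, chosen because they show some of the highest peaks, the more frequent forms of the word and the lineage genes described afterwards. Each is the plus strand of 51 bp in mm10 (GRCm38), with the 6-base cores of the deposited motif hits in capitals, named by its nearest gene.

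The highest peak of the set held a single CAGCTG, the palindromic form, and so did the peaks beside Klf13 and Olig1 and the highest of the peaks beside Trmt61a, which lies in a known enhancer:
Rbpjl, chr2:164386052-164386102: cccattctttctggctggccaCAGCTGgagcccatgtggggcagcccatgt
Klf13, chr7:63957074-63957124: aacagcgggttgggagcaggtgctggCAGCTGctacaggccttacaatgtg
Olig1, chr16:91266137-91266187: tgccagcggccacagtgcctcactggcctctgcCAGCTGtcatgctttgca
Trmt61a, chr12:111694280-111694330: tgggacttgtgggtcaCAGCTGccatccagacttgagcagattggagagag

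Several peaks held more than 1 core, as beside Med31 (CAGCTG in 2 places), Tef (CAGATG and CAGCTG), Id1 (CATATG and CAGCTG) and Wnt10a, where CAGCTG stood beside CATCTG as well as CAGCTT:
Med31, chr11:72234244-72234294: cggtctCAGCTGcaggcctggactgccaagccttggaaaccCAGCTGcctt
Tef, chr15:81831646-81831696: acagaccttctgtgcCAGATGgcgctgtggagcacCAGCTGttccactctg
Id1, chr2:152729775-152729825: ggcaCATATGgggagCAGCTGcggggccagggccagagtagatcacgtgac
Wnt10a, chr1:74808237-74808287: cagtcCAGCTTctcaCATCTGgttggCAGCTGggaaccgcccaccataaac

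Other peaks held CAGATG or its reverse complement CATCTG, or CATATG, with no CAGCTG:
Gjc3, chr5:137966764-137966814: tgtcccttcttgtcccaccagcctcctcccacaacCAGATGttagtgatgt
Mal, chr2:127631757-127631807: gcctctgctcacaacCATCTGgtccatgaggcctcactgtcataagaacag
Olig2, chr16:91246383-91246433: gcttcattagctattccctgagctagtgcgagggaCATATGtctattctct

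Further peaks had the motif matched at a core that is not a CANNTG word, mostly AAGCTG or CAGCCG, which reads as CGGCTG on the other strand and is 1 base away from CAGCTG:
Kif16b, chr2:142903050-142903100: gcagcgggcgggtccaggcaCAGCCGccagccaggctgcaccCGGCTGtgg
Mrps5, chr2:127612375-127612425: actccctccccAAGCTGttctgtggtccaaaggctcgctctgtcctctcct
Fkbpl, chr17:34641406-34641456: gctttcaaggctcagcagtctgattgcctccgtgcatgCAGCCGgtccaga

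The deposited peak score is a number from the authors' peak calling whose scale is not named, so it was ranked within the list and not read as an enrichment. The scores of the 281 near intergenic E-box peaks ran from 2.76 to 114, with quartiles of 8.96, 14.3 and 24.1. The median was 12.4 in the 103 near intergenic peaks without the motif, 12.3 in the 319 intergenic E-box peaks beyond 25000 bp and 12.3 in the 481 promoter peaks with the motif, and 11.6 over the whole list. The upper quartile of 24.1 compared with 22.95, 21.4 and 20.2 in the same classes, so the scores overlapped widely and the near intergenic E-box peaks were somewhat higher in their middle and upper range.

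The highest peak, with a score of 114, was assigned to Rbpjl, at -17117 bp from its TSS (a negative distance is upstream). Rbpjl is the pancreatic relative of the Notch effector Rbpj. The near end of Matn4 lay between the peak and Rbpjl, 3291 bp from the peak. A TSS of Slpi in the GENCODE annotation lay 3018 bp away. Kctd14, a BTB-domain protein, had a peak of 107 at -4538 bp, and Kif16b, a kinesin that carries early endosomes, one of 101 at -1611 bp. Together with these, 3 of the 10 highest peaks of the whole list and 8 of its 100 highest were near intergenic E-box peaks.

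Next in order were Ass1, the argininosuccinate synthase of arginine synthesis, with a peak of 97.3 at -20592 bp, and Clip3, a CAP-Gly linker protein that binds microtubules, with one of 88.3 at -1905 bp. Klf13, a Krüppel-like zinc finger factor, had a peak of 75.6 at -18184 bp. Tef, a leucine zipper factor driven by the circadian clock, had one of 74.1 at 20257 bp, the highest peak on the downstream side. Olig1, the bHLH relative of Olig2 that lies beside it in the genome, had one of 62.5 at -3607 bp.

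The 15 highest peaks were completed by Eml2, a microtubule-associated protein (52.9, at -5409 bp), Scamp5, a membrane protein of secretory vesicles (50.97, at -1180 bp), Gas7 (50.1, at -13776 bp), Fkbpl (49.7, at -3452 bp), Med31, a subunit of the Mediator complex (48.2, at -18677 bp), Mrps5, a protein of the mitochondrial ribosome (48.1, at 24974 bp), and Dusp1, a phosphatase of MAP kinases (47.0, at 16042 bp). By the deposited distances, high peaks were thus found at both ends of the range and on both sides of the TSS. A GENCODE TSS of any gene lay closer to several, at 2943 bp for Ass1, 5141 bp for Klf13 and 10728 bp for Tef. It lay at 12367 bp for Mrps5, 1508 bp for Dusp1 and 660 bp for Eml2. For Med31 (18677 bp) and Gas7 (27932 bp) none lay closer than the deposited distance.

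**Figure D1:**
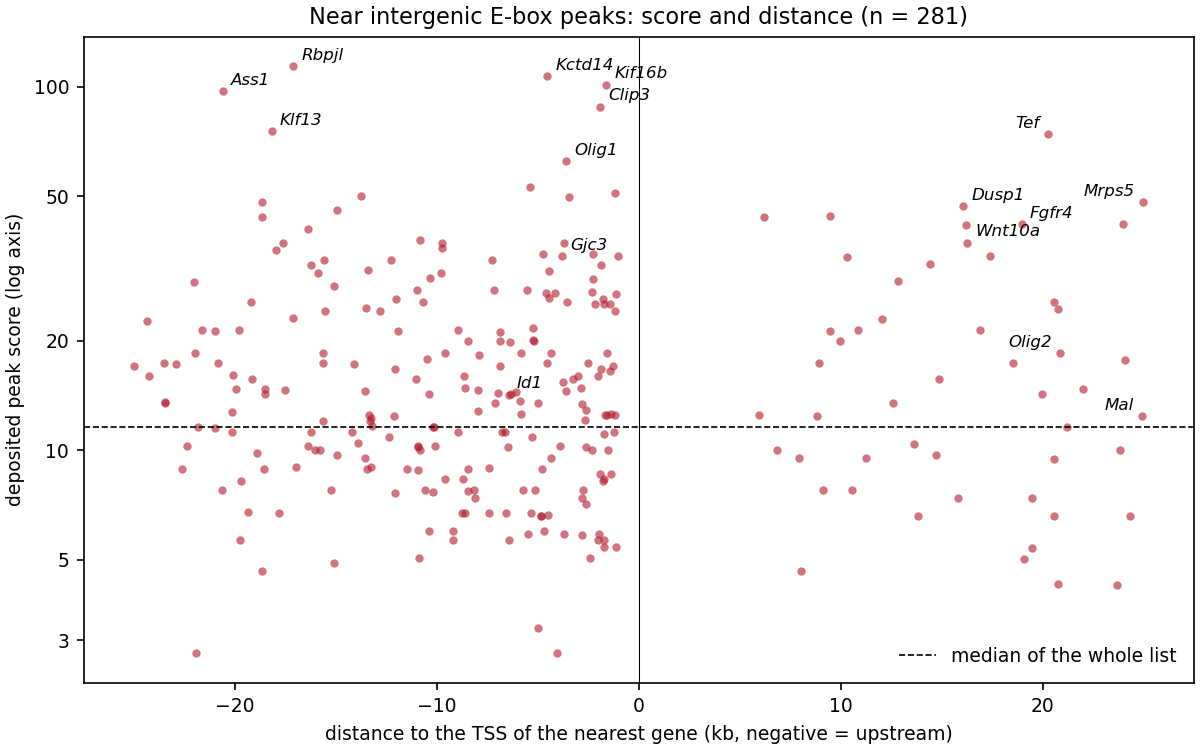
Each point is 1 of the 281 near intergenic E-box peaks, with its distance to the TSS of the nearest gene in kb on the x axis and its deposited peak score on a log axis, and the dashed line is the median of the whole list (11.6). By the deposited distance, peaks above 60 lie both within 5 kb of the TSS (Kctd14, Kif16b, Clip3, Olig1) and beyond 15 kb (Rbpjl, Ass1, Klf13, Tef), and no peak lies within 1 kb.

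A score at or above the median of the whole list was found in 172 of 281 near intergenic E-box peaks (61.2%), against 55 of 103 near intergenic peaks without the motif (53.4%). The odds ratio was 1.38 (95% interval 0.873 to 2.17), and the exact-test adjusted p was 0.373. This and the following comparisons used two-sided Fisher's exact tests over peaks with Benjamini-Hochberg adjustment, over 19 comparisons where no other number is given, so p-values describe the peaks of this list and say nothing of the spread between mice.

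Against the intergenic E-box peaks beyond 25000 bp, of which 168 of 319 reached the median (52.7%), the odds ratio was 1.42 (1.02 to 1.96), with p = 0.0391 in the exact test and an adjusted p of 0.106. Against promoter peaks with the motif, of which 254 of 481 did so (52.8%), it was 1.41 (1.05 to 1.90), with p = 0.0282 in the exact test and an adjusted p of 0.0894. The near intergenic E-box peaks therefore had the larger share in all 3 comparisons, and none of the 3 passed the threshold of 0.05 after adjustment. When an E-box was instead recognized as any CANNTG in the 51 bp, the comparison with promoter peaks passed, with an odds ratio of 1.58 and an exact-test adjusted p of 0.0201.

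**Figure D2:**
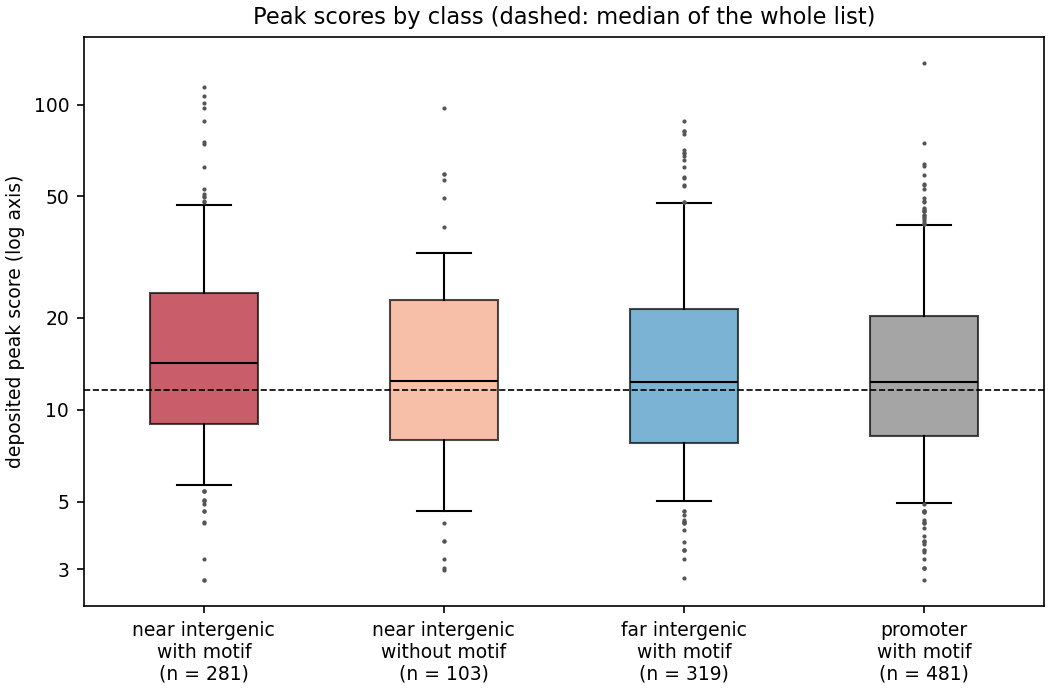
Box plots of the deposited peak score on a log axis for the near intergenic E-box peaks, near intergenic peaks without the motif, intergenic E-box peaks beyond 25000 bp and promoter peaks with the motif. Boxes span the quartiles with the median as a line, whiskers the 5th to 95th percentile, points the peaks outside them, and the dashed line is the median of the list, with the class medians at 14.3, 12.4, 12.3 and 12.3.

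By position, 230 of the 281 near intergenic E-box peaks lay upstream of the TSS (81.9%, exact 95% interval 76.8 to 86.2%), at a median of -8615.5 bp, and 51 lay downstream, at a median of 16200 bp. Without regard to side, the quartiles of the distance were 4797, 10130 and 16243 bp. There were 75 peaks between 1000 and 5000 bp, 64 between 5000 and 10000 bp, 55 between 10000 and 15000 bp, 49 between 15000 and 20000 bp and 38 beyond that, so their number fell off gradually with distance. The shortest distance was -1020 bp beside Plekhb1, since closer peaks are annotated as promoter peaks, and no peak lay in the first 5 kb downstream, which held 0.321% and 1.89% of the near intergenic windows of the genome in its bins of 2.5 kb.

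The same split by side was seen in the sequence from which such peaks can come. Of all 51 bp windows of the genome that are intergenic and within 25000 bp of a TSS, 78.1% were upstream. Near intergenic peaks without the motif lay upstream in 81 of 103 cases (78.6%), and no difference of the near intergenic E-box peaks from them was detectable (odds ratio 1.22, 0.699 to 2.15, exact-test adjusted p = 0.671). The intergenic E-box peaks beyond 25000 bp were upstream in 170 of 319 cases (53.3%), and against these the odds ratio was 3.95 (2.72 to 5.75, exact-test adjusted p = 8.06e-13), a difference that cannot be told apart from the smaller space downstream of a nearby TSS.

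**Figure D3:**
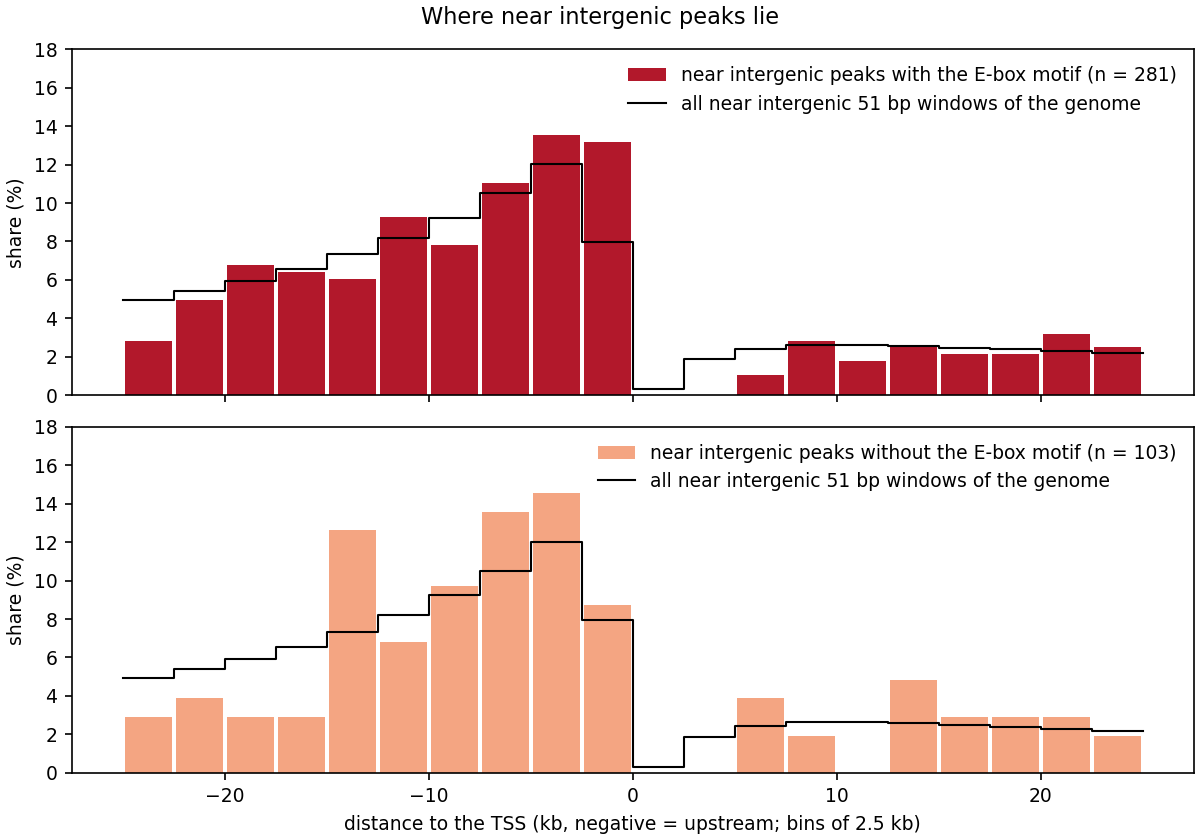
Share of peaks in bins of 2.5 kb of the distance to the TSS, for near intergenic E-box peaks (top, n = 281) and near intergenic peaks without the motif (bottom, n = 103), with the share of all near intergenic 51 bp windows of the genome as a line. Both sets lie mostly upstream, as the windows do, and the last 2.5 kb before the TSS held 13.2% of the near intergenic E-box peaks, 8.74% of those without the motif and 7.97% of windows.

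The motif was common among near intergenic peaks at any distance. It was present in 281 of 384 (73.2%, 68.4 to 77.5%), and in 139 of 193 within 10 kb of the TSS (72.0%) and 142 of 191 between 10 and 25 kb (74.3%). The odds ratio between these distances was 0.888 (0.565 to 1.40, exact-test adjusted p = 0.700 over 13 comparisons that were chosen after the values had been seen). Just inside the limit of 25000 bp were peaks of 17.1 beside Pvrl1 (at -24987 bp) and 48.1 beside Mrps5 (at 24974 bp), and just outside it were peaks of 43.2 beside Arrb1 (at -25253 bp) and 10.2 beside Sned1 (at -25450 bp).

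The hits of the motif in near intergenic E-box peaks fell on 316 distinct sites. The core was CAGCTG at 162 of these (51.3%), CAGATG or its reverse complement at 67 (21.2%), AAGCTG at 47 (14.9%), CAGCCG at 31 (9.81%), CATATG at 8 and CAGACG at 1. At the 373 sites of intergenic E-box peaks beyond 25000 bp the shares of CAGCTG and CAGCCG were 55.5% and 4.56%, and at the 512 sites of promoter peaks they were 36.5% and 30.1%. CAGCTG alone thus made up more of the near intergenic sites than all other cores together.

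By peak, 156 near intergenic E-box peaks had a CAGCTG among their hits (55.5%), 61 had another CANNTG (21.7%) and 64 had no CANNTG core in any hit (22.8%). Their median scores were 14.7, 12.4 and 13.5, and the highest score with no CANNTG core was the 101 of the Kif16b peak. A score at or above the list's median was reached by 102 of 156 peaks with CAGCTG (65.4%), against 38 of 64 with no CANNTG core (59.4%). The odds ratio was 1.29 (0.711 to 2.35, exact-test adjusted p = 0.522 over the 13 comparisons), so a difference of either sign remained within the interval.

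The 51 bp of 224 of the 281 near intergenic E-box peaks held a CANNTG anywhere (79.7%), against 15 of 103 near intergenic peaks without the motif (14.6%) and 22.8% of the near intergenic windows of the genome. CAGCTG was in 158 peaks (56.2%) and 1.87% of those windows, and CAGATG in 67 (23.8%) and 3.86%. These excesses follow from the rule and from the search that found the motif in this list, and were not tested. Of the forms that are not part of the motif, CACGTG was in 4 peaks (1.42%) and 0.496% of windows and CAACTG in 9 (3.20%) and 2.41%, while CACCTG was in 8 (2.85%) and 3.34% and CACATG in 6 (2.14%) and 4.20%. CAAATG, at 1.42% of peaks, was in 3.90% of windows, CAAGTG, at 1.78%, in 2.84%, and CAATTG, at 0.712%, in 0.873%, so these forms lay on both sides of the windows' shares.

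CAGCTG was found in 158 of 281 near intergenic E-box peaks (56.2%), against 192 of 319 E-box peaks beyond 25000 bp (60.2%), with an odds ratio of 0.850 (0.614 to 1.18, exact-test adjusted p = 0.572). Against promoter peaks with the motif, of which 185 of 481 held it (38.5%), the odds ratio was 2.06 (1.52 to 2.77, exact-test adjusted p = 1.71e-05). The near intergenic E-box peaks therefore carried the palindromic form more often than the promoter E-box peaks while no difference from the far ones was detectable.

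GC content moved with that difference. A GC content at or above the list's median of 60.8% was found in 112 of 281 near intergenic E-box peaks (39.9%), against 333 of 481 promoter E-box peaks (69.2%), with an odds ratio of 0.295 (0.217 to 0.401, exact-test adjusted p = 4.87e-14). Against the near intergenic peaks without the motif (43.7%) and the far E-box peaks (37.0%) the odds ratios were 0.854 (0.541 to 1.35) and 1.13 (0.812 to 1.57), each with an exact-test adjusted p of 0.671. The median GC content was 56.9% in near intergenic E-box peaks and 64.7% in promoter E-box peaks, while near intergenic windows averaged 42.8%.

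Among peaks under the median GC content, CAGCTG was in 92 of 169 near intergenic E-box peaks (54.4%), against 58 of 148 promoter E-box peaks (39.2%), and the odds ratio was 1.85 (1.18 to 2.90). Among peaks at or above it, CAGCTG was in 66 of 112 near intergenic E-box peaks (58.9%), against 127 of 333 promoter E-box peaks (38.1%), and the odds ratio was 2.33 (1.50 to 3.60). The adjusted p-values were 0.0228 and 0.00108 over the 13 comparisons chosen afterwards, so the difference was present on both sides of the median.

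The CAGCCG core ran the other way, with 30 of 281 near intergenic E-box peaks (10.7%), against 149 of 481 promoter E-box peaks (31.0%). Its odds ratio was 0.266 (0.174 to 0.407, exact-test adjusted p = 4.55e-10 over the 13 comparisons). A single distinct site was held by 88.3% of near intergenic and 93.6% of promoter E-box peaks. At such a site the cores are alternatives, so this difference is not independent of that in CAGCTG. Against the far E-box peaks, of which 17 of 319 held it (5.33%), the odds ratio was 2.12 (1.14 to 3.94, exact-test adjusted p = 0.0466). The near intergenic E-box peaks thus stood between far and promoter peaks in this core, and it was tested because its shares had been seen.

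At least 2 deposited hits of the motif were listed for 153 of 281 near intergenic E-box peaks (54.4%), against 199 of 481 promoter E-box peaks (41.4%), with an odds ratio of 1.69 (1.26 to 2.28, exact-test adjusted p = 0.00252). With only peaks of a score of at least 10 it did not pass (1.6, exact-test adjusted p = 0.0519). The odds ratio against the 190 of 319 far E-box peaks (59.6%) was 0.812 (0.587 to 1.12, exact-test adjusted p = 0.373). A palindrome is listed once on each strand, so this count mostly reflects CAGCTG. Counted as distinct sites, 33 near intergenic E-box peaks had at least 2 (11.7%), against 31 promoter E-box peaks (6.44%), and the odds ratio of 1.93 (1.16 to 3.23) had an exact-test adjusted p of 0.0374 over the 13 comparisons but of 0.101 over the 7 that were added first. The peaks beside Wnt10a, with a score of 37.3, and Cbfa2t3, also with 37.3, were those with 3 distinct sites, and Cbfa2t3, a corepressor gene, is named for that after its values were seen.

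Within the peaks, 160 of 281 near intergenic E-box peaks had a site centered within 10 bp of the peak's center (56.9%), against 237 of 481 promoter E-box peaks (49.3%) and 167 of 319 far E-box peaks (52.4%). The odds ratios were 1.36 (1.01 to 1.83, exact-test adjusted p = 0.0794 over the 13 comparisons) and 1.20 (0.872 to 1.66, adjusted p = 0.371). The median distance of the nearest site from the center was 8.5 bp in near intergenic E-box peaks, 9.5 bp in far ones and 10.5 bp in promoter ones. The sites were spread over the whole 51 bp in each class, and none of these differences passed the threshold.

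**Figure D4:**
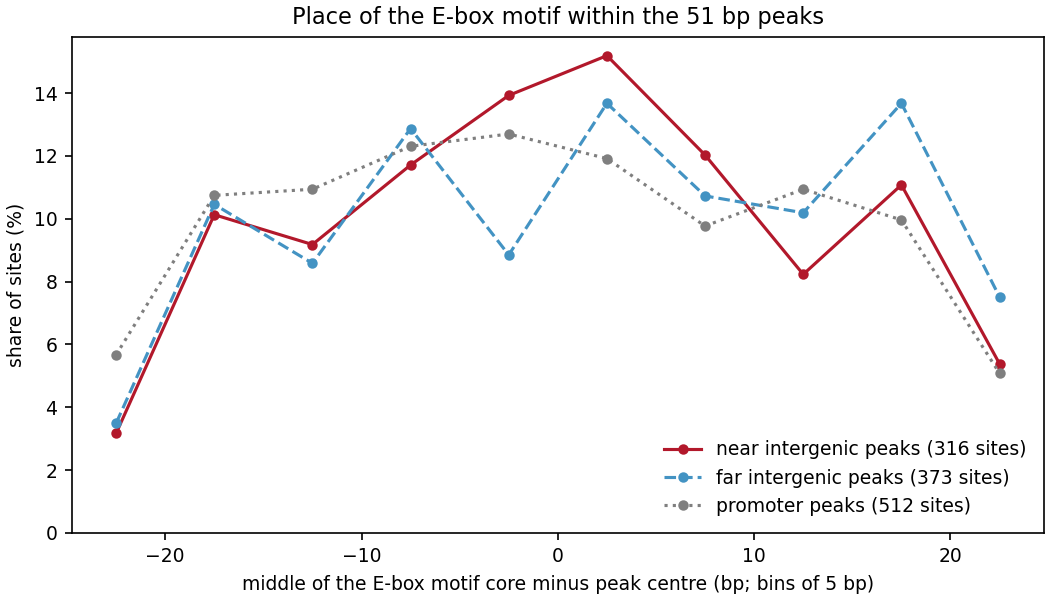
Share of E-box motif sites in bins of 5 bp by the distance of the middle of the core from the peak's center, for near intergenic (316 sites), far intergenic (373) and promoter peaks (512). The share of near intergenic sites is highest in the bins beside the center (13.9% and 15.2%) and lowest at the left edge (3.16%), and the other classes are flatter or irregular.

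Repeats were rare at these peaks. At least 50% of the bases were masked as repeats in 6 of 281 near intergenic E-box peaks (2.14%), against 2 of 103 near intergenic peaks without the motif (1.94%), 6 of 319 far E-box peaks (1.88%) and 7 of 481 promoter E-box peaks (1.46%). The adjusted p-values were 1, 1 and 0.671, with intervals of the odds ratio as wide as 0.219 to 5.55. By contrast, 38.6% of the near intergenic windows of the genome were masked to that extent. How far the alignment of reads in repeats sets this share was not tested.

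Besides the E-box motif the list carries 19 other deposited motifs. Against far E-box peaks none of the 19 passed the test (0% called, with 1 at an unadjusted p under 0.05), and against promoter E-box peaks 2 passed (10.5% called). Both were rarer at near intergenic E-box peaks. The number that passed against promoter E-box peaks was 1 with peaks of a score of at least 10, 0 at a limit of 10000 bp and 4 at 50000 bp. A motif whose most frequent word is GGAAGCGGAAGT, of the kind that ETS factors bind, was at 0 of 281 near intergenic E-box peaks, against 22 of 481 promoter E-box peaks (4.57%), with an exact-test adjusted p of 0.000941. A count of 0 allows a share of up to 1.07% (3 counts of 281), and the motif was in 232 of the 4215 peaks of the list (5.50%). A motif whose most frequent word is TGGTCCCGCC was at 2 near intergenic E-box peaks (0.712%), against 24 promoter E-box peaks (4.99%), with an odds ratio of 0.136 (0.0320 to 0.582, exact-test adjusted p = 0.0129), and in 4.39% of the list. The most frequent other motif at near intergenic E-box peaks was TGATTGGC, which holds the CCAAT word, at 19 peaks (6.76%), against 21 far E-box peaks (6.58%) and 42 promoter E-box peaks (8.73%), and in 18.9% of the list.

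The 281 peaks lay nearest to 269 genes, of which 259 had 1 such peak, 8 had 2 and 2 had 3. These are 1.23% of 21900 protein-coding genes in the RefSeq annotation, the share against which the counts of the gene lists below are to be read. Lists are described by their counts alone and were chosen with earlier results of these data known. The lists with the largest shares below also had many peaks of any class, which were nearest to 14.1% of all protein-coding genes. Such peaks were nearest to 61.8% of the myelin genes, 48.1% of the lineage regulators and 36.7% of the Krüppel-like, Sp and nuclear factor I genes. For the clock and immediate early genes the shares were 35% and 33.3%.

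Among 55 genes of myelin, 5 had a near intergenic E-box peak (9.09%). Plekhb1, a pleckstrin homology protein, had one of 34.2 at -1020 bp, and Gjc3, the connexin 29 of myelinating glia, one of 34.2 at -3830 bp. Pde8a, a phosphodiesterase of cAMP, had one of 28.4 at -15074 bp, Enpp2, which makes lysophosphatidic acid, one of 17.4 at -15623 bp, and Mal, a proteolipid of myelin, one of 12.4 at 24913 bp. All 5 scores were above the median of the list. The Mal peak lay 1419 bp past the end of Mal, and the Mrps5 peak of 48.1 was 19382 bp away in the same interval between both genes, so the nearest TSS divided neighbors between them.

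Among 54 regulators of the oligodendrocyte lineage, 6 had such a peak (11.1%), namely Klf13, Olig1, Klf9, Olig2, Id1 and E2f1. The Olig2 peak had a score of 18.5 at 20858 bp and lay 19754 bp from the Olig1 peak of 62.5, between the end of Olig2 and the start of Olig1. The list held 3 more peaks nearest to Olig2, at its promoter (3.71, at -60 bp) and upstream (17.1 at -41130 bp and 6.75 at -33448 bp), and 2 more nearest to Olig1 (8.54 at -6803 bp and 28.4 at 36168 bp), all below the Olig1 peak. Id1, an inhibitor of bHLH factors that lacks the basic region, had a peak of 14.2 at -6451 bp, and E2f1, a factor of the cell cycle, one of 11.2 at -14227 bp.

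Klf9, a Krüppel-like factor induced by thyroid hormone, had 2 such peaks, of 19.98 at -5216 bp with a CGGCTG core and 14.4 at -6962 bp with CAGCTG. They lay 1746 bp apart and were both lower than a peak of 39.9 at -84151 bp, which lacks the motif. Klf13 had a second peak of 10.9 at -12398 bp, lying 5786 bp from its peak of 75.6, and beyond the limit there were E-box peaks of 35.7 at -26429 bp and 23.3 at -47991 bp. With Nfic (7.72, at -8477 bp) and Klf10 (5.41, at -1745 bp), 4 of 30 genes of the Krüppel-like, Sp and nuclear factor I families had such a peak (13.3%).

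Other families of transcription factors stood closer to the background. Of 101 bHLH genes 5 had such a peak (4.95%), which were Olig1, Olig2, Id1, Mycl (10.0, at -10854 bp) and Neurod2 (5.67, at -9206 bp). Of 199 Sox, Pou and homeodomain genes 3 did (1.51%), which were Tgif1 (15.7, at -19179 bp), Pknox1 (13.5, at -7135 bp) and Meis1 (12.5, at -1569 bp), and no Sox or Pou gene was among them. Of 47 nuclear receptors 2 did (4.26%), which were Nr1d1 and Nr4a3.

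Apart from the myelin genes above (5 of 55), the lists of cell type markers held no gene with such a peak. These lists were too short to be set apart from the background. None of the 20 markers of oligodendrocyte precursors had one, and none of 20 each of astrocytes, neurons, microglia and endothelial and mural cells, nor any of 15 of Schwann cells, at a background of 1.23%. Peaks of any class were nearest to 7 of the precursor markers, 5 of the astrocyte, 2 of the neuron, 0 of the microglia, 3 of the endothelial and mural and 3 of the Schwann cell markers, and 3082 of the 21900 genes had a peak (14.1%).

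Among signaling pathways, 4 of 74 Wnt genes had a near intergenic E-box peak (5.41%). Wnt10a, a secreted ligand, had the highest, of 37.3 at 16243 bp, and the ligands Wnt11 (8.22, at -19709 bp) and Wnt4 (6.57, at 24297 bp) and the inhibitor Nkd1 (8.31, at -8708 bp) had lower ones. Of 59 genes of BMP and TGF-beta signaling 2 did (3.39%), the ligand Bmp4 (8.90, at -18579 bp) and the target Id1. Of 44 Notch and Hedgehog genes 2 did (4.55%), Rbpjl and the Hedgehog receptor Ptch1 (7.13, at -2631 bp), and of 59 receptor tyrosine kinases and ligands 2 did (3.39%), the receptor Fgfr4 (41.8, at 18950 bp) and the ligand Gas6 (8.31, at -9591 bp). Apart from Rbpjl, Wnt10a, Fgfr4 and Id1, the peaks of these pathways were below the median of the list.

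Genes that respond quickly to stimuli or to the clock had 4 of 27 and 2 of 20 members with such a peak (14.8% and 10%). Of the immediate early genes, Dusp1 had the peak of 47.0, Fos, a subunit of AP-1, one of 17.7 at 24082 bp, Arc, a regulator of synaptic receptors, one of 10.0 at 6833 bp, and Nr4a3, an orphan receptor, one of 6.71 at -6564 bp. Of the clock genes, Tef had the peak of 74.1 and Nr1d1, a repressor of the clock, one of 7.41 at -8097 bp. Their scores thus ranged from well below the median of the list to among the highest.

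Of 132 genes of tubulins and microtubule motors 6 had such a peak (4.55%). Besides Kif16b and Clip3 these were Tubb4b, a beta-tubulin, with one of 34.8 at -2275 bp, Mapt, the axonal protein tau, with one of 27.6 at -10987 bp, Kifc5b (16, at -24259 bp) and Dync1li1, a dynein chain (8.90, at -13472 bp). Apart from that of Dync1li1, these peaks lay above the median of the whole list.

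Larger families were near the background. Such peaks were beside 4 of 264 ion channel genes (1.52%), the glutamate receptor Grik2 (26.02, at -1756 bp), Kcna10, Itpr3 (14.8, at -8623 bp) and Kcnk16 (7.77, at 10538 bp). They were beside 4 of 389 solute carriers (1.03%), among them the citrate carrier Slc25a1 (43.9, at 6206 bp), Slc25a44 (17.4, at -2542 bp) and Slc45a4 (11.5, at -20984 bp). Of 154 G protein-coupled receptors and Rgs proteins 1 did (0.649%), Gpr61 (7.64, at -12082 bp).

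Among genes of contact and guidance, 2 of 128 cadherins and claudins had such a peak (1.56%), Cldn9 (32.4, at -16236 bp) and Cdh20 (11.6, at -21846 bp). Of 71 adhesion genes 2 did (2.82%), Pvrl1, the adhesion protein nectin 1, and Lingo1, an inhibitor of myelination (10.3, at -16383 bp), and of 73 axon guidance genes 1 did (1.37%), the semaphorin Sema3b (25.7, at -3567 bp). Of 53 genes of cholesterol and lipid synthesis 1 did (1.89%), Degs1, which makes ceramide (7.77, at -5156 bp). None of 117 collagens, laminins and integrins, 67 Ras regulators or 13 septins did.

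The genes with 3 near intergenic E-box peaks were Trmt61a and Pim3. Trmt61a, a tRNA methyltransferase, had peaks of 21.3, 10.4 and 41.6 at 9457, 13639 and 16200 bp, each with a single CAGCTG. Pim3, a serine and threonine kinase, had peaks of 16.1 and 14.7 with CAGCTG at -20087 and -18527 bp and one of 13.4 with CGGCTG at -2841 bp, beside a peak of 15.3 in its 5' UTR that lacks the motif. The 2 peaks of Errfi1, an inhibitor of the EGF receptor, were the closest, 456 bp apart, with scores of 34.2 (CAGATG) and 21.4 (CAGCTT).

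The 2 peaks of Aatk, a kinase of neural tissue, were of nearly the same score, 27.1 at -4166 bp and 26.9 at -1138 bp. Gramd2 had 26.02 and 10.0, Tldc1 24.6 and 5.41, Kcna10 17.3 and 5.67, and Coro1c, an actin-binding coronin, 10.3 and 8.99, so that peaks of a gene could differ widely in score or hardly at all. Peaks that share a gene are not independent sites of the list, and each of the 19 comparisons was also made with only the highest peak of each gene.

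A neighbor within 5000 bp was found for 46 of 281 near intergenic E-box peaks (16.4%), against 29 of 319 far E-box peaks (9.09%), with an odds ratio of 1.96 (1.19 to 3.21, exact-test adjusted p = 0.0345). It did not pass when only peaks with a score of at least 10 were used or when the limit was 50000 bp. Against near intergenic peaks without the motif (11 of 103, 10.7%) the odds ratio was 1.64 (0.812 to 3.30, exact-test adjusted p = 0.373). The nearest peak of the 46 was a promoter peak in 15 cases, another near intergenic E-box peak in 13 and another intergenic peak in 9, so closeness to genes and clustering of sites cannot be told apart in this count.

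Of the 269 genes 33 also had a promoter peak in the list (12.3%), against 15 of 103 genes nearest to near intergenic peaks without the motif (14.6%) and 21 of 283 genes nearest to far E-box peaks (7.42%). The odds ratios were 0.820 (0.425 to 1.58, exact-test adjusted p = 0.676) and 1.74 (0.982 to 3.10, adjusted p = 0.149). In 19 of the 35 pairs the near intergenic E-box peak had the higher score, and the E-box motif was in 13 of the 35 promoter peaks. Kif16b had 101 at the near intergenic peak against 12.4 at the promoter, Clip3 88.3 against 6.71, Tubb4b 34.8 against 9.53 and Id1 14.2 against 11.4, whereas Ptch1 had 7.13 against 8.31. Among pairs picked for a high promoter peak, T2 had 6.65 at the near intergenic peak against 54.9 at the promoter. Ddit4 had 21.2 against 42.7 and Cyp27a1 5.99 against 27.7. They were named after their values were seen, and picking by promoter score favors a higher promoter peak. Kif16b and Clip3 were named by their near intergenic scores, which favors the opposite, so these examples show no general direction. Most of the genes therefore had no promoter peak in the list, and where both were present neither was regularly the higher.

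**Figure D5:**
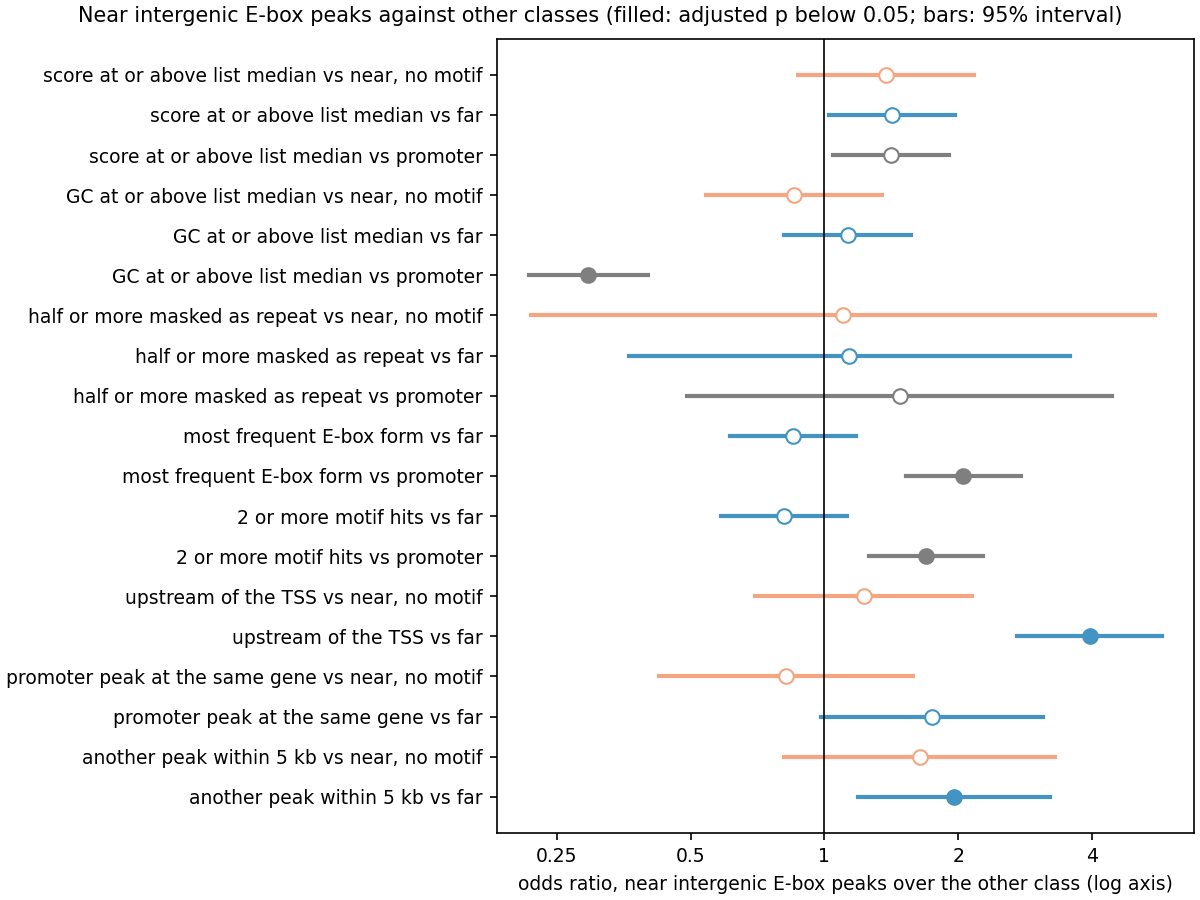
Odds ratios of the 19 comparisons over peaks, near intergenic E-box peaks over the other class, on a log axis with 95% intervals, filled where the adjusted p was below 0.05. The 5 filled points are GC content, the most frequent E-box form and 2 or more hits against promoter peaks, and the upstream side and a neighboring peak against far peaks; no comparison with near intergenic peaks without the motif is filled.

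The intergenic label was compared with a later RefSeq annotation of the same assembly. Of the 281 near intergenic E-box peaks 83 overlapped a gene there (29.5%), against 31 of 103 near intergenic peaks without the motif (30.1%) and 96 of 319 far E-box peaks (30.1%). The overlapped genes were protein-coding in 42 cases and long non-coding in 40. These counts take every gene listed there, predicted models among them. With curated transcripts alone, the intergenic call was alike for 4097 of 4212 nuclear peaks of the list. An exon of a curated transcript was overlapped by 6 peaks (2.14%), among them 2 of the 5 highest, since the Kif16b peak lies in an exon of the antisense RNA Kif16bos and the Clip3 peak in an exon of a non-coding transcript of Thap8. The Kctd14, Gas7, Enpp2, Ptch1 and Lingo1 peaks lie within longer models of their own nearest genes, and the Ass1 peak within Hmcn2. The Klf13 peak of 75.6 lies within Gm39024, the Klf9 peak of 19.98 within 2410080I02Rik and the Dusp1 peak within Gm34455. Further peaks named above also overlap a gene there, whereas the Rbpjl, Tef, Olig1, Olig2 and Mal peaks overlap none.

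A GENCODE TSS of any transcript type lay within 1 kb of 36 of the 281 near intergenic E-box peaks (12.8%), against 27 of 103 near intergenic peaks without the motif (26.2%). The odds ratio was 0.414 (0.236 to 0.725, exact-test adjusted p = 0.0124 over the 13 comparisons, chosen after the shares had been seen). In far E-box peaks the share was 20 of 319 (6.27%). The near intergenic peaks with the motif were thus less often beside a TSS that the deposited annotation does not hold than those without it. Among the peaks with the motif, those assigned to Slc25a1 and Slc45a4 lay 30 and 34 bp from a GENCODE TSS, of AA914427 and of Slc45a4 itself. The Slc45a4 peak also overlaps Slc45a4 in the later RefSeq annotation. The Eml2 and Nr4a3 peaks lay 660 and 469 bp from a GENCODE TSS of their own genes, and the Kif16b peak 110 bp from that of Kif16bos. For the Ptch1 peak it was 97 bp, from a TSS of A930032L01Rik.

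RefSeq also lists tested enhancers, 1015 in all, and 1 of the 281 near intergenic E-box peaks lay in one (0.356%), against 23 of 4212 peaks of the list (0.546%). It was the highest of the 3 peaks beside Trmt61a, with a score of 41.6, in an enhancer that spans chr12:111691971-111695499 and is active in the neural tube, hindbrain, midbrain and forebrain of mouse embryos. As printed above, its only motif site is a CAGCTG.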

How the data were processed

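The authors aligned the reads of the Olig2 ChIP and the Input Control to mm10 (GRCm38) with BWA, called peaks with MACS2 on pooled experiments, and annotated them and searched motifs with HOMER, per the submitters' processing notes and the methods of the study. The peak score was deposited by the authors for each peak of 51 bp without naming its scale, and was used as a score within the list. The GC content was deposited as a fraction, and the distance to the TSS, gene type and motif hits were used as deposited. Read from the reference assembly (GRCm38), the sequences gave that GC fraction within 0.0001 for 4215 of 4215 peaks and held 7177 of 7177 motif hits. Members and lists were chosen with earlier results of these data known. Shares were compared over peaks by two-sided Fisher's exact tests with Benjamini-Hochberg adjustment, over 19 comparisons, over 19 motifs for each of the 2 other classes of E-box peaks, and over 13 comparisons added after the values were seen, in rounds of 7 and 6. Odds ratios have 95% log-scale intervals, with 0.5 added where a count was 0, and those of shares are exact (Clopper-Pearson), covering counting error only. Windows are all 51 bp tiles of the genome, without sampling. Named genes are those of the 15 highest peaks, up to 4 of each of 30 lists, genes with several peaks, peaks in enhancers, those at the distance limit and those the study names. A few further members of lists with no more than 6 genes that had a peak (E2f1, Neurod2, Nfic, Klf10, Kifc5b, Dync1li1) and Cbfa2t3, T2, Ddit4 and Cyp27a1 were added after their values were seen. Alternatives changed the score required, the distance limit, the peaks that share a gene, the recognition of the E-box, the masking and the neighbor distance. Tests were tested on simulated data. Values of the Input Control were not analysed here, and the results of 1 gene list and 1 gene are not reported here. Python 3.11.15, numpy 2.4.6, scipy 1.17.1 and matplotlib 3.10.9 were used.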

Additional observations from a re-analysis of the deposited data

How the results depend on the processing

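Of the 5 comparisons that passed the test, the GC content and the CAGCTG form against promoter peaks and the upstream side against far peaks passed under every alternative tried. With only peaks of a score of at least 10, the odds ratio of 2 or more hits against promoter peaks was 1.6 (exact-test adjusted p = 0.0519) and that of a neighboring peak against far peaks 2.06 (adjusted p = 0.0951), and at a limit of 50000 bp a neighboring peak had 2.1 (adjusted p = 0.0599). The score against promoter peaks passed with any CANNTG as the E-box (1.58, exact-test adjusted p = 0.0201), and a promoter peak at the same gene against far peaks at a limit of 10000 bp (2.25, adjusted p = 0.0246). The number of other motifs called against promoter peaks was 2, against 1 at a score of at least 10, 0 at 10000 bp and 4 at 50000 bp, and the number of near intergenic E-box peaks was 139 at 10000 bp. The causes were not tested, though some of these settings use fewer peaks. Odds ratios that passed no test changed side. For repeats they were 0.956 and 0.874 against near peaks without the motif and far peaks with the highest peak of each gene, 0.38, 0.658 and 0.989 against those and promoter peaks at 10000 bp, 0.579 and 0.618 at 50000 bp, and 0.953 and 0.933 for any base masked. At 10000 bp, 2 or more hits against far peaks had 1.02 and a promoter peak at the same gene against near peaks without the motif 1.53. CAGCTG against far peaks had 1.06 at 50000 bp and 1.01 with CANNTG, and the upstream side against near peaks without the motif 0.858 at 50000 bp and 0.829 with CANNTG. No paired analysis was possible because the list holds 1 value for each peak from pooled experiments. The depth behind each peak is unknown, so low scores cannot be told from shallow coverage.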
